A study of Mus musculus with 38 samples.

Results

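The 6 genes described here make, break down or sense histamine in the mouse hypothalamus. They were chosen by name: *Hdc* (histidine decarboxylase), *Hnmt* (histamine N-methyltransferase), *Maob* (monoamine oxidase B) and the receptors *Hrh1*, *Hrh2* and *Hrh3*. Each had 1 probe set that carries a single gene symbol, so that 6 of the 19937 named genes on the array, and 6 of its 34760 probe sets, are covered. RNA of the dissected hypothalamus came from female mice of the FVB/N strain and was hybridized to 38 Affymetrix Mouse Gene ST arrays, 1 per mouse. Values are log2 intensities after robust multi-array averaging (RMA), so that a difference of 1 is a doubling, and levels of different genes are not compared because probe sets differ in their brightness.

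The 79Q group (n = 8) and the 18Q group (n = 5) received an adeno-associated viral vector (AAV) into both sides of the hypothalamus at 8 weeks of age. The vector carried a fragment of human huntingtin (HTT) of 853 amino acids, with 79 or 18 CAG repeats, under the neuronal human Synapsin 1 promoter. These mice were killed at 12 weeks of age, 4 weeks after injection, beside WT control mice (n = 5) that were not injected. No group received an empty vector, so that HTT expression and the injection cannot be told apart against WT control. BACHD mice carry full-length human mutant HTT with 97 CAG repeats as a transgene in all tissues and were compared with WT littermates at 2 months (n = 6 and n = 6) and at 10 months of age (n = 5 and n = 3).

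Histamine in the brain comes from neurons of the tuberomammillary nucleus in the posterior hypothalamus, which promote wakefulness, and *Hdc* is the enzyme that makes it from histidine in a single step. Released histamine is methylated by *Hnmt* and the product is oxidized by monoamine oxidase B. The H1 receptor couples to Gq and excites neurons, the H2 receptor couples to Gs, and the H3 receptor couples to Gi/o and, on histamine neurons themselves, limits synthesis and release. Mast cells also express *Hdc*.

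Only 1 of the 30 combinations of 6 genes and 5 group comparisons passed the test, which was *Hdc* in 79Q vs. WT, a comparison in which 2.07% of all probe sets passed. At an unadjusted limma p under 0.05 there were 3 of the 6 genes in 79Q vs. WT, where 14% of all probe sets reached it. There were 2 between the vectors (4.24% of all probe sets), 1 at 10 months (4.55%), and 0 in 18Q vs. WT (12.6%) and at 2 months (4.09%). Because *Hdc* carries the result, the 250 bases before its RefSeq start are shown (GRCm38.p6, chr2:126618679-126618928, minus strand), with the only match to a searched motif in capitals:
Hdc: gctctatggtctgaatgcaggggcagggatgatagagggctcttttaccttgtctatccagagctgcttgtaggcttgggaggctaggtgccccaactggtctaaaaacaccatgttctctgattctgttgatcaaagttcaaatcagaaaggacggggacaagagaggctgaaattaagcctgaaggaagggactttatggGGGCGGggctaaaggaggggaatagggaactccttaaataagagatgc
The capitals mark GGGCGG, the GC box, which lies 48 to 43 bases before the start and is present on either strand in 32.7% of the 32851 RefSeq windows of this length. TATAAA (12.4% of windows), CCAAT (33.8%) and CACGTG (6.02%), searched on both strands, did not occur in these letters. The GC content was 48.8%, against a median of 52.4% over all windows. The annotated gene reaches further upstream of this start, so that other transcripts may begin elsewhere. Of the other genes, 4 had windows in the table, of which the *Hrh3* window held 4 GGGCGG matches and a GC content of 80.8%, and the *Hnmt* window held no GGGCGG at 38.8%.

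*Hdc* fell by 42.9% in 79Q mice against WT control. The 8 arrays of 79Q stood at 8.39, 8.20, 8.89, 8.67, 9.28, 8.86, 8.42 and 8.63, and the 5 arrays of WT control at 9.39, 9.33, 9.62, 9.65 and 9.39. All 8 arrays of 79Q lay below the lowest WT array, the closest being replicate 5 at 9.28 against a WT array at 9.33. The means were 8.67 ± 0.34 in 79Q (SD, n = 8) and 9.48 ± 0.15 in WT control (SD, n = 5). The log2 fold change was -0.81 (SE 0.14, 95% CI -1.11 to -0.51), with an adjusted *p* of 0.0037 by limma after Benjamini-Hochberg adjustment over all probe sets. The exact two-sided permutation test gave p = 0.00155, where the smallest p it allows is 0.000777. Over all probe sets, 2.07% passed the adjusted threshold of 0.05 in either direction, 0.581% were lower and passed, and 0.938% were lower without overlap between the groups. By limma p, *Hdc* ranked 227 among the 34760 probe sets.

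**Figure D1:**
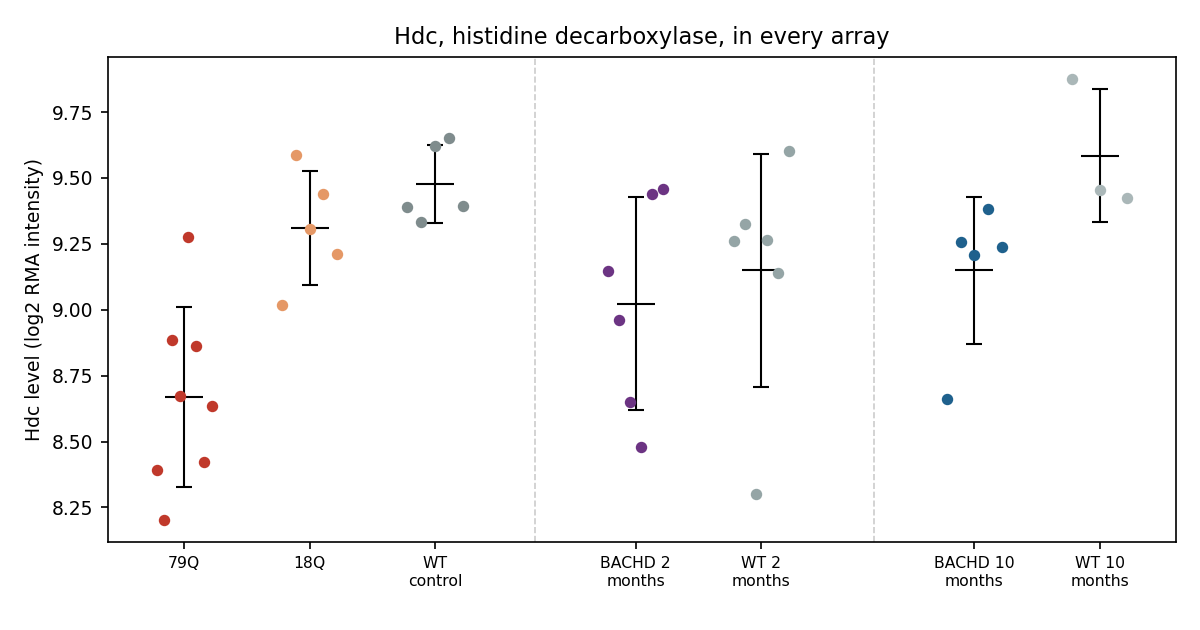
*Hdc* level of every array as log2 RMA intensity, with dashed lines between the AAV, 2 months and 10 months sets. Points are arrays, and black bars give the mean and SD of each group. The 79Q arrays lie between 8.20 and 9.28, all below the WT control arrays, and BACHD arrays lie below WT arrays at 10 months but not at 2 months.

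In 18Q mice, *Hdc* stood at 9.02, 9.59, 9.31, 9.44 and 9.21, with a mean of 9.31 ± 0.22 (SD, n = 5). The 18Q range overlapped that of WT control, with 4 of 5 arrays under the WT mean. The log2 fold change in 18Q vs. WT was -0.17 (SE 0.16, 95% CI -0.50 to 0.17) and did not pass (adjusted *p* = 0.758, limma, exact permutation p = 0.19). The interval still contains a decrease of up to 0.50 log2 units, so that a smaller decrease in 18Q mice is not excluded. In this comparison 2.11% of all probe sets passed.

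The direct comparison of both vectors addresses the length of the CAG repeat, with the injection shared. *Hdc* had a log2 fold change of -0.64 in 79Q vs. 18Q (SE 0.14, 95% CI -0.94 to -0.34). All 8 arrays of 79Q lay under the 18Q mean, but the ranges overlapped, since replicate 5 of 79Q (9.28) stood above replicates 1 (9.02) and 6 (9.21) of 18Q. The unadjusted limma p was 0.0003, the rank 8 among 34760 probe sets, and the exact permutation p = 0.00622. After adjustment the difference did not pass (adjusted *p* = 1), and 0% of probe sets passed in this comparison by limma, with 1475 at an unadjusted p under 0.05. Without replicate 5 of 79Q the value was -0.73 with an adjusted *p* of 0.145, the smallest among the alternatives run. The called *Hdc* difference in 79Q vs. WT is thus not shown to depend on repeat length.

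At 2 months, *Hdc* stood at 9.15, 8.96, 8.65, 8.48, 9.44 and 9.46 in BACHD mice and at 9.26, 9.32, 8.30, 9.27, 9.14 and 9.60 in WT mice. Both groups spread widely and overlapped, with a log2 fold change of -0.13 (SE 0.22, 95% CI -0.60 to 0.34, adjusted *p* = 0.957 by limma). Leaving out single arrays gave -0.02 without replicate 4 of BACHD to -0.30 without replicate 3 of WT, and none of these values passed. The lowest array at this age was replicate 3 of WT at 8.30. This array also had the highest mean of 6 thalamic markers (10.42), and the lowest BACHD array, replicate 4, had a thalamic mean of 10.04. The thalamic mean ranged between 8.19 and 10.38 in BACHD and between 8.42 and 10.42 in WT mice, and replicate 1 of WT paired a thalamic mean of 10.27 with an *Hdc* level of 9.26. The part of thalamic tissue in these levels was not tested.

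At 10 months, *Hdc* stood at 8.66, 9.26, 9.21, 9.38 and 9.24 in BACHD mice and at 9.88, 9.45 and 9.42 in WT mice. Every BACHD array was below every WT array, and 1.56% of all probe sets were lower without overlap in the same comparison. The means were 9.15 ± 0.28 in BACHD (SD, n = 5) and 9.58 ± 0.25 in WT (SD, n = 3), with a log2 fold change of -0.44 (SE 0.17, 95% CI -0.83 to -0.04). This did not pass (unadjusted p = 0.0348, adjusted *p* = 0.997 by limma), and the exact permutation p = 0.0357 stands against a smallest possible p of 0.0179. The value depended on single arrays: it was -0.29 without replicate 1 of WT and -0.31 without replicate 1 of BACHD. The thalamic mean was between 8.68 and 9.86 in BACHD and between 8.36 and 9.21 in WT mice, and its part in the value was not tested. By limma 0% of probe sets passed at 2 months, at 10 months or for the age by genotype term, with 1422, 1583 and 909 at an unadjusted p under 0.05. The age by genotype term of *Hdc* was -0.31 (SE 0.32, 95% CI -0.99 to 0.37, adjusted *p* = 1), and -0.14 without replicate 3 of WT at 2 months, so that a change of the genotype difference with age is not shown.

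The enzymes that break down histamine did not pass in any comparison. *Hnmt* was between 7.82 and 8.12 in 79Q (median 7.92), between 7.81 and 8.25 in 18Q and between 7.87 and 8.15 in WT control mice. Its log2 fold change was -0.12 in 79Q vs. WT (SE 0.07, 95% CI -0.28 to 0.04, adjusted *p* = 0.521, limma) and -0.09 in 18Q vs. WT. At 2 months it stood at 8.50, 8.38, 8.19, 8.18, 8.69 and 8.80 in BACHD and at 8.18, 8.15, 8.38, 8.50, 7.97 and 8.40 in WT mice. The *Hnmt* difference there was 0.19 (SE 0.12, 95% CI -0.07 to 0.45, adjusted *p* = 0.939, limma), with the ranges overlapping. At 10 months the *Hnmt* difference was -0.03 (95% CI -0.26 to 0.19).

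*Maob* was between 9.73 and 10.10 in 79Q mice, between 10.01 and 10.20 in 18Q and between 9.98 and 10.16 in WT control mice. In 79Q mice 7 of 8 arrays were under the mean of WT control and 7 of 8 under that of 18Q. The log2 fold change of *Maob* was -0.12 in 79Q vs. WT (SE 0.05, unadjusted p = 0.0463, adjusted *p* = 0.345 by limma) and -0.12 in 79Q vs. 18Q (SE 0.05, unadjusted p = 0.0387, adjusted *p* = 1), which share the 79Q arrays. In 18Q vs. WT it was 0.00 (95% CI -0.12 to 0.13). *Maob* differed by -0.01 at 2 months (95% CI -0.27 to 0.25) and by -0.02 at 10 months (95% CI -0.22 to 0.17). The enzyme also oxidizes other amines and is found in astrocytes as well as in histamine neurons, so that its level in tissue is not particular to histamine.

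Among the receptors, *Hrh3* had the largest difference in 79Q vs. WT. It stood at 9.78, 9.63, 9.93, 10.04, 9.97, 9.92, 9.78 and 9.88 in 79Q mice, at 9.94, 9.89, 9.83, 10.04 and 10.05 in 18Q mice and at 9.95, 9.99, 10.00, 10.18 and 10.07 in WT control mice. All 8 arrays of 79Q were at or under the WT mean of 10.04, with overlap between the groups. The log2 fold change of *Hrh3* in 79Q vs. WT was -0.17 (SE 0.06, 95% CI -0.31 to -0.04, unadjusted p = 0.0143) and did not pass (adjusted *p* = 0.203, limma). At 10 months *Hrh3* stood at 10.19, 10.18, 10.31, 10.16 and 10.16 in BACHD mice and at 9.96, 10.12 and 10.16 in WT mice, a difference of 0.12 (SE 0.06, 95% CI -0.02 to 0.26, adjusted *p* = 0.997, limma). At 2 months the *Hrh3* difference was -0.04 (95% CI -0.22 to 0.14).

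*Hrh1* and *Hrh2* did not pass in any comparison either. *Hrh1* ranged between 8.57 and 8.87 in 79Q, between 8.58 and 9.0 in 18Q and between 8.61 and 8.90 in WT control mice, and its log2 fold changes over the 5 comparisons lay between -0.09 and 0.03. *Hrh2* ranged between 7.92 and 8.02 in 79Q, between 7.75 and 8.02 in 18Q and between 7.86 and 8.04 in WT control mice. Its log2 fold change was 0.05 in 79Q vs. WT (95% CI -0.04 to 0.14) and 0.07 in 79Q vs. 18Q (95% CI -0.02 to 0.16). At 2 months *Hrh2* was between 7.76 and 8.21 in BACHD mice and between 7.94 and 8.06 in WT mice, with 5 of 6 BACHD arrays under the WT mean and a difference of -0.11 (95% CI -0.28 to 0.05, adjusted *p* = 0.939, limma). The receptor intervals in the 10 months comparison were within -0.13 and 0.26.

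**Figure D2:**
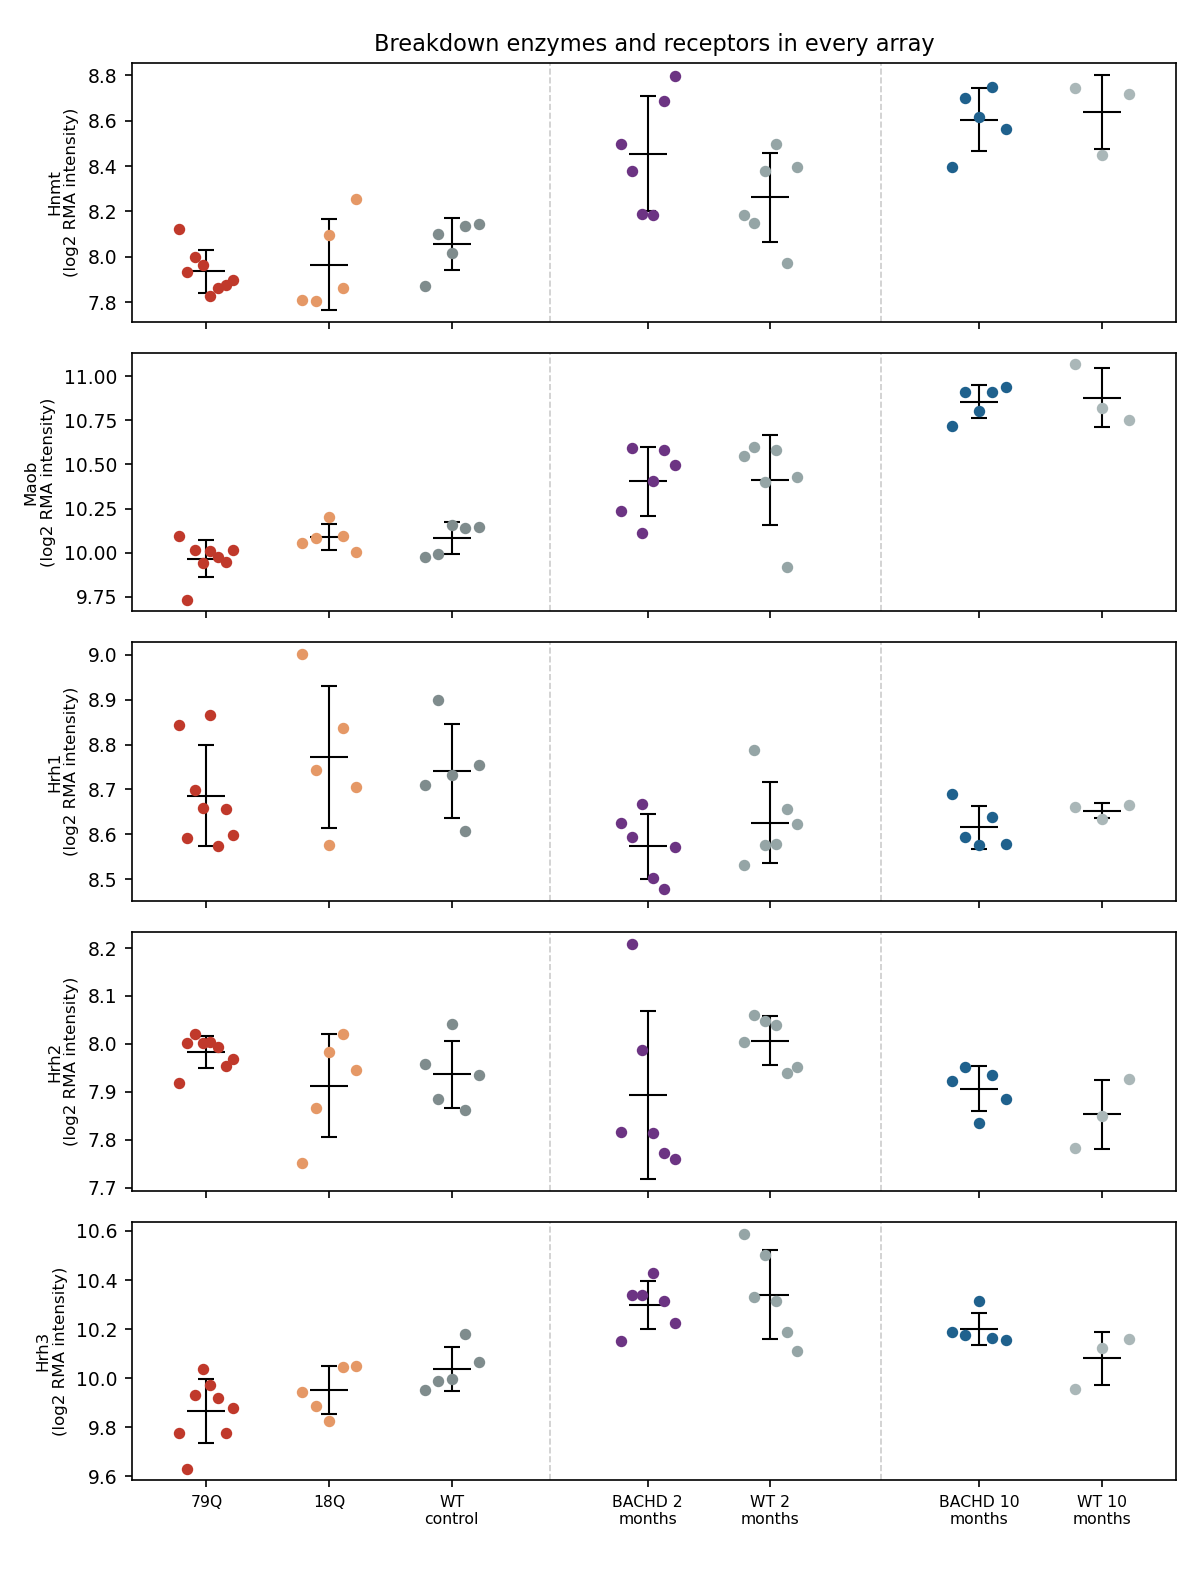
Levels of *Hnmt*, *Maob*, *Hrh1*, *Hrh2* and *Hrh3* in every array as log2 RMA intensity, with dashed lines between the 3 sets. Points are arrays and black bars give the mean and SD of each group. Each vertical axis has its own scale, and no gene separates a mutant or injected group from its WT group.

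**Figure D3:**
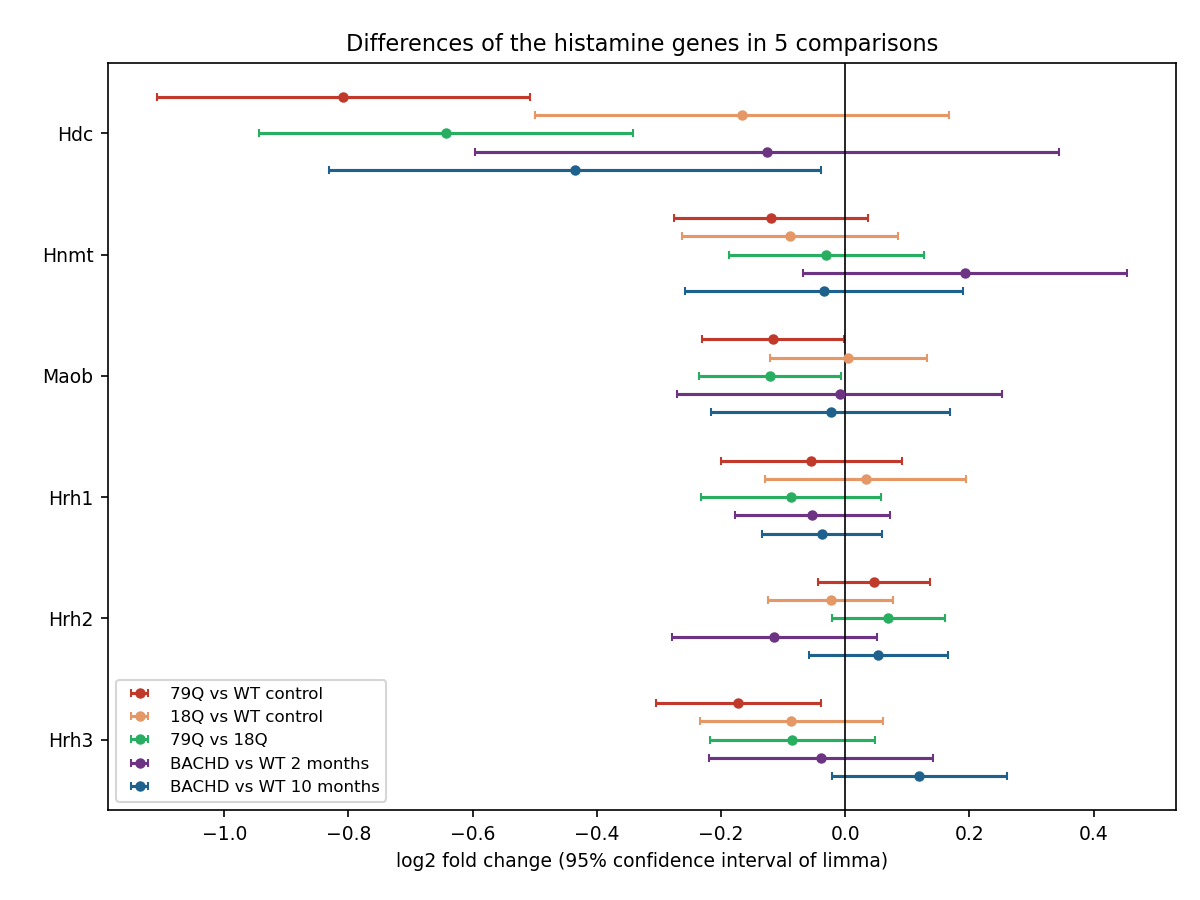
Log2 fold changes of the 6 genes in 5 comparisons (points) with the 95% confidence interval of limma (bars). *Hdc* in 79Q vs. WT, at -0.81, is the only difference that passed the adjusted threshold.

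Over all arrays of a set, whatever their group, mean levels of *Hnmt* were 7.98 in the AAV set, 8.36 at 2 months and 8.62 at 10 months. Those of *Maob* were 10.03, 10.41 and 10.86. *Hdc* was at 9.07, 9.09 and 9.31. The sets were treated as normalized separately and differ in age, so that these steps were not tested. Within groups *Hdc* varied more than most genes: its residual SD of 0.27 in the AAV set, 0.42 at 2 months and 0.27 at 10 months stood at the percentiles 89.7, 94.0 and 90.5 of all probe sets. *Hrh1* at 2 and 10 months stood at the percentiles 7.35 and 7.05. After subtraction of group means, the highest correlation between any of the 15 pairs of these genes was that of *Hnmt* and *Maob* (r = 0.46 over 38 arrays), and *Hdc* with *Hrh3* gave -0.11. These are descriptions over arrays that share dissection and normalization.

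Genes whose pattern over the 38 arrays was most like that of *Hdc*, after subtraction of the mean of each set, were *Prph* (r = 0.90), *Wif1* (0.79), *Slc18a2* (0.73), *Crhbp* (0.71) and *Rbp4* (0.68) among 19937 named genes. *Prph* encodes the intermediate filament peripherin, *Wif1* a secreted Wnt inhibitor, and *Slc18a2* the vesicular monoamine transporter that loads histamine and other amines into vesicles. *Crhbp* encodes a protein that binds corticotropin-releasing hormone, and *Rbp4* the carrier of retinol in plasma. *Prph*, *Wif1* and *Slc18a2* were also in the list of tuberomammillary markers used here. The lowest values were those of *Defb22* (-0.59), *Sgca* (-0.58) and *Cox6b2* (-0.57). With group means subtracted, so that group differences no longer enter, *Prph* (0.86), *Cidea* (0.84) and *Crhbp* (0.76) were highest. For the other genes the highest correlations with group means subtracted were *Trappc2* with *Hnmt* (0.84), *Cul3* with *Maob* (0.84), *Kcna3* with *Hrh1* (0.65), *Hspb9* with *Hrh2* (0.80) and *Entpd4* with *Hrh3* (0.81).

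*Prph* stood at 7.84, 7.76, 7.93, 7.83, 8.14, 7.94, 7.74 and 7.97 in 79Q mice, at 8.06, 8.33, 8.17, 8.20 and 8.07 in 18Q mice and at 8.30, 8.39, 8.26, 8.34 and 8.15 in WT control mice. *Prph* fell in 79Q vs. WT, with all 8 arrays below the lowest WT array, a log2 fold change of -0.39 (SE 0.06) and an adjusted *p* of 0.0018 by limma. Of all probe sets, 0.938% were lower without overlap in this comparison. The correlations with set means subtracted include the 79Q difference of *Hdc*, so that lower 79Q values of genes picked by them are partly built in. *Prph* differed by -0.27 in 79Q vs. 18Q (adjusted *p* = 1) and by -0.16 in BACHD vs. WT at 10 months (adjusted *p* = 0.997), neither of which passed. *Slc18a2* stood at 9.02, 8.95, 9.21, 9.19, 9.30, 9.17, 8.67 and 8.95 in 79Q mice and at 9.39, 9.53, 9.62, 9.59 and 9.39 in WT control mice. Its groups did not overlap, but its difference of -0.45 (log2, SE 0.17) did not pass (adjusted *p* = 0.238, limma) in the fit of all 18 AAV arrays. The 18Q arrays of *Slc18a2* stood at 9.30, 9.61, 10.65, 9.42 and 9.29, and in replicate 3 the dopamine neuron genes *Slc6a3* (12.18) and *Th* (11.01) were high as well, against at most 8.19 and 9.95 in the other 18Q arrays. When the 79Q and WT control arrays were fitted without 18Q, *Slc18a2* passed (adjusted *p* = 0.0203).

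**Figure D4:**
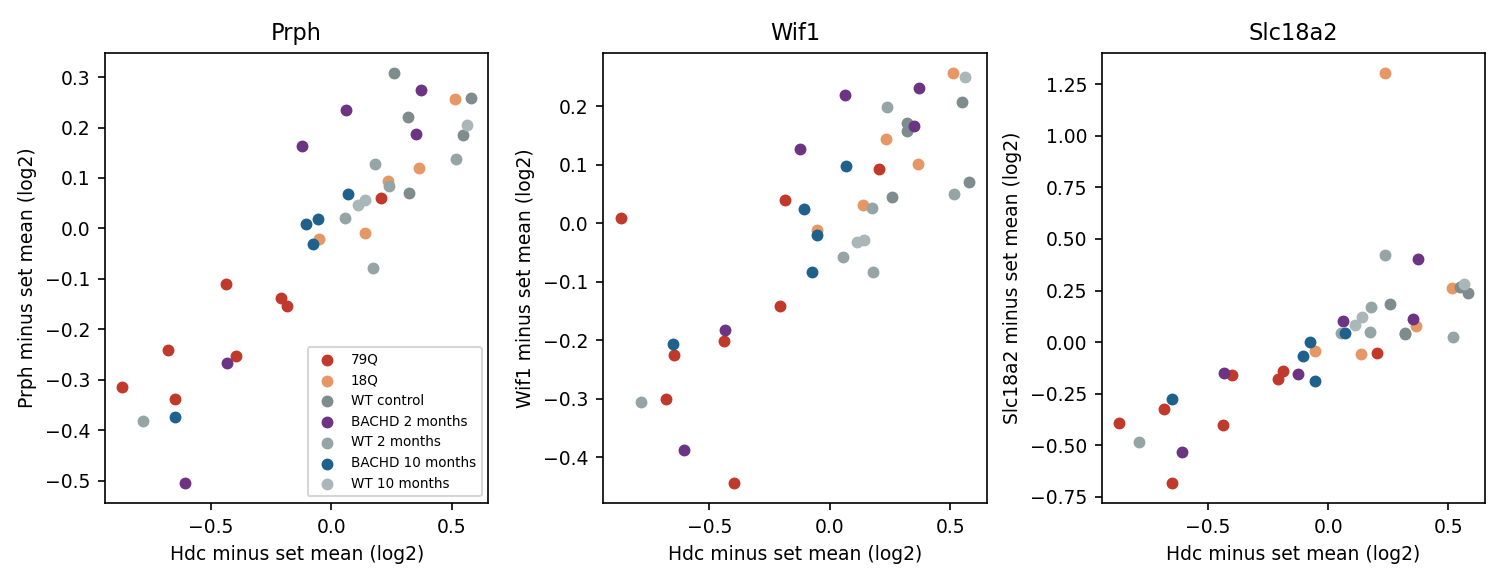
*Prph*, *Wif1* and *Slc18a2* (vertical axes) against *Hdc* (horizontal axis) in 38 arrays, each as log2 level minus the mean of its set. Points are arrays coloured by group. The correlations are 0.90, 0.79 and 0.73, and the single high point of *Slc18a2* is replicate 3 of 18Q.

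Of 12 tuberomammillary markers, 2 fell in 79Q vs. WT, where 0.581% of all probe sets were lower and passed. These 2 were *Prph* and *Gad1* (glutamate decarboxylase 1, which makes GABA in most inhibitory neurons, log2 fold change -0.21, SE 0.05, adjusted *p* = 0.0275 by limma). *Gad1* did not pass in 9 of 20 alternatives, 7 of which left out a single array (replicate 6, 7 or 8 of 79Q, or 1, 2, 5 or 7 of WT control). *Wif1*, at -0.28 (SE 0.08, adjusted *p* = 0.0817), passed in 5 of 19 alternatives, namely with arrays centred on their medians, quantile normalization repeated, array weights, and without replicate 3 or 5 of 79Q (smallest adjusted *p* = 0.038). The median log2 fold change of the list was -0.19, against -0.02 over all probe sets. The mean of the 12 markers ranged between 8.79 and 9.0 in 79Q, between 8.97 and 9.07 in 18Q and between 9.01 and 9.10 in WT control mice. No marker passed in 18Q vs. WT (median -0.05), between the vectors or in BACHD vs. WT at 2 and 10 months (medians -0.13, -0.03 and -0.13). At an unadjusted limma p under 0.05, 7 of 12 were lower in 79Q vs. WT, where 8.31% of all probe sets were, 4 between the vectors (2.66% of all probe sets), 5 at 10 months (2%) and 0 in 18Q vs. WT (6.5%) and at 2 months (3.22%). In dissected tissue, fewer histamine neurons and less RNA per neuron cannot be told apart.

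Of 8 measured genes of histamine transport and further breakdown, none passed in any comparison, and the median in 79Q vs. WT was -0.09. The lowest was *Slc18a2* at -0.45, which is also among the tuberomammillary markers above. As given there, it passed in the fit of 79Q and WT control without 18Q (adjusted *p* = 0.0203, limma). At an unadjusted p under 0.05, 2 genes of the list were lower and 1 was higher. Of all probe sets, 8.31% were lower at this cut and 14% reached it in either direction. *Hal* (histidine ammonia-lyase, which degrades histidine) had a value of 0.21 (log2, SE 0.06, adjusted *p* = 0.0985, limma). None of 9 measured genes of receptor coupling passed either (median -0.05, 2 lower at an unadjusted p under 0.05, against 8.31% of all probe sets). Among them, *Plcb3*, a phospholipase C, was at -0.12 and the Gq subunit *Gnaq* at -0.06. The receptor *Hrh4* had a log2 fold change of 0.10 in 79Q vs. WT (adjusted *p* = 0.727). The log2 fold changes of 8 mast cell markers in 79Q vs. WT lay between -0.12 and 0.12, with 4 below 0 and a median of -0.01. Among them, the proteases *Cpa3* and *Cma1* were at 0.01 and -0.01, and *Kit*, also expressed by neurons, at 0.12. The mean of the 8 markers ranged between 5.47 and 5.69 in 79Q, between 5.49 and 5.64 in 18Q and between 5.58 and 5.63 in WT control mice. These means lay under the array medians of 7.38 to 7.46, so that flat values at this low level say little about mast cells. By limma 0 of 8 passed in any comparison (0 at an unadjusted p under 0.05 in 79Q vs. WT, against 14% of all probe sets).

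In the fit of all 18 AAV arrays, no gene of the other neuron lists passed in 79Q vs. WT. That fit includes replicate 3 of 18Q, which had *Th* at 11.01 and the lowest peptide marker mean of the set, 9.13. These lists were not examined in a fit without 18Q. All 15 measured hypothalamic peptide markers had a log2 fold change below 0 in 79Q vs. WT, 9 of them at an unadjusted p under 0.05 (8.31% of all probe sets) and 0 after adjustment by limma, with a median of -0.28. In 18Q vs. WT 13 of the 15 were below 0, 0 of them at an unadjusted p under 0.05, with a median of -0.19. *Hcrt*, the precursor of the orexins, which excite histamine neurons, was at -0.43 (SE 0.12, adjusted *p* = 0.0856), and the peptide *Vip* at -0.84 (SE 0.25, adjusted *p* = 0.101). The mean of the peptide markers ranged between 9.34 and 9.81 in 79Q, between 9.13 and 10.12 in 18Q and between 9.84 and 10.00 in WT control mice. The median was -0.10 for 6 genes of other aminergic neurons, led by *Th* (tyrosine hydroxylase) at -0.45 (SE 0.17, adjusted *p* = 0.21), and -0.08 for 9 pan-neuronal markers. Of these 9, 5 were lower and 0 higher in 79Q vs. WT at an unadjusted limma p under 0.05 (8.31% of all probe sets were lower). In 18Q vs. WT all 9 were below 0, with 4 lower at this cut (6.5% of all probe sets) and a median of -0.10. The pan-neuronal mean ranged between 11.58 and 11.70 in 79Q, between 11.51 and 11.67 in 18Q and between 11.65 and 11.73 in WT control mice.

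Markers of immune cells were higher in both injected groups. In 79Q vs. WT 5 of 7 microglia markers and 4 of 8 leukocyte markers rose, and in 18Q vs. WT 5 of 7 and 5 of 8. Of all 34760 probe sets, 519 were higher and passed in 79Q vs. WT and 628 in 18Q vs. WT. The microglia mean ranged between 8.46 and 9.09 in 79Q, between 8.51 and 9.01 in 18Q and between 8.17 and 8.26 in WT control mice. The leukocyte mean ranged between 6.44 and 7.21 in 79Q, between 6.54 and 7.24 in 18Q and between 6.03 and 6.2 in WT control mice. *Cd3g* of the T cell receptor complex had a log2 fold change of 1.72 in 79Q and 2.13 in 18Q, each against WT control, and the microglial receptor *Csf1r* 0.49 and 0.65. In 18Q vs. WT, 2 of 9 astrocyte markers rose, *Gfap* (0.77) and *Aqp4* (0.52). However, 4 of these 9 were below 0, and the median was 0.05. Of 6 endothelial markers 1 rose, *Cldn5* (0.37), with 0 below 0 and a median of 0.25. Of 9 pan-neuronal markers 1 fell, the neuronal enzyme *Eno2*, by 0.14. Over all probe sets, 2.11% passed in this comparison. None of 6 oligodendrocyte, 6 thalamic and 5 pituitary markers passed in any comparison, and their medians in 79Q vs. WT were 0.08, 0.10 and 0.00 in this order. The part of these cell types in the *Hdc* value was not tested.

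**Figure D5:**
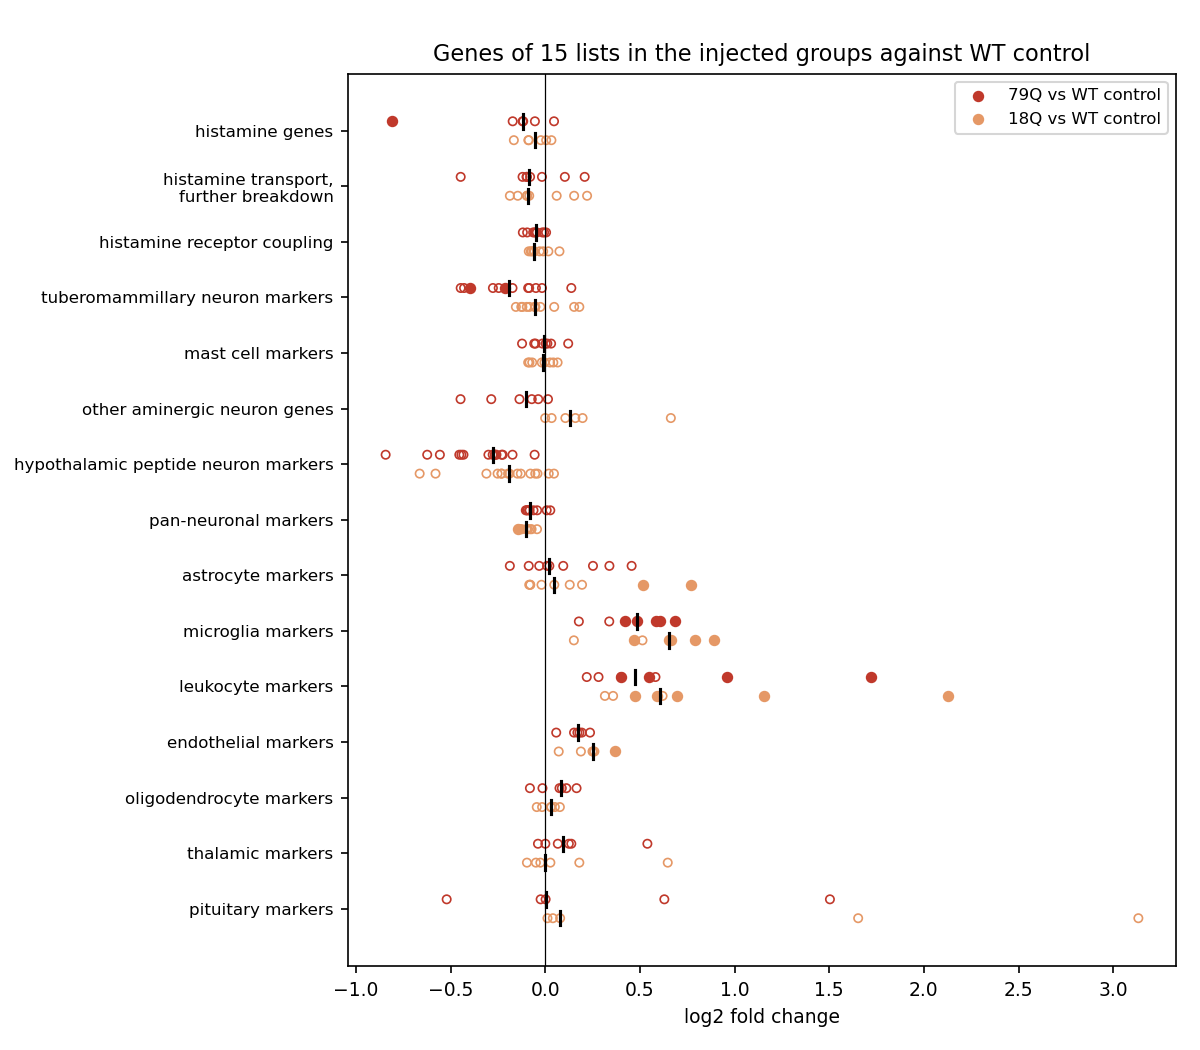
Log2 fold changes of the genes of 15 lists in 79Q vs. WT (red) and 18Q vs. WT (orange). Filled points passed an adjusted *p* of 0.05, open points did not, and black ticks are the medians of each list. *Hdc* is the filled point at -0.81 in the top row, and the filled points of the microglia and leukocyte rows lie above 0 for both groups.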

How the data were processed

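Hypothalamic RNA was extracted with the RNeasy Lipid Tissue Mini Kit, and samples of low RNA integrity were omitted by the authors. The deposited log2 intensities were made by the authors with RMA, which corrects background, applies quantile normalization and summarizes probes by median polish, for which the submitters' processing notes name R 4.1.1 and affy 1.70.0, with limma 3.48.3. The number of probe sets was 34760, of which 21640 had 1 gene symbol, 1321 several and 11799 no entry in the platform table. The sets were treated as separately normalized: array medians were 7.38 to 7.46 in the AAV set, 7.16 to 7.41 at 2 months and 7.28 to 7.32 at 10 months. Group differences were therefore taken only within a set. The set means of *Hnmt*, *Maob* and *Hdc* are given side by side as descriptions. The lowest correlation between arrays of a set was 0.985.

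Groups came from the labels. Group differences were fitted without a filter for all probe sets by limma 3.58.1 under R 4.3.3 (moderated statistics with default options), with Benjamini-Hochberg adjustment over all probe sets of a comparison and a threshold of 0.05. The 18 AAV arrays were fitted together, each BACHD age alone, and the age by genotype term over both ages. The steps were tested on simulated data. Exact permutation tests were two-sided and 30 in number, and their p-values are given without adjustment. The number of mice limits the precision, and CI are those of limma. Arrays of 3 sets were centred before correlations.

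The genes and the 15 lists were chosen with earlier results of these data known. Named were the 6 genes, the genes of a list that passed in any comparison (at most 6, smallest p first; where none passed, the 2 of smallest unadjusted p for 79Q against WT control, for lists that are described) and those most like *Hdc* or another of the 6 genes. Further genes were named for their role after their values were seen (*Cpa3*, *Cma1*, *Hrh4*, *Wif1*, *Slc18a2*, *Slc6a3*). Of the listed genes, 8 had no single-symbol probe set. Promoter windows came from RefSeq (GRCm38.p6), matched by symbol for 5 of 6 genes. The alternatives were other scalings, filters and variance models, fewer groups per fit, a replicate block and leaving out each array.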

Additional observations from a re-analysis of the deposited data

Results flagged for a closer look

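Single arrays stood apart from the others of their group in 9 of 60 combinations of gene and group examined, where chance gives about 1 in 20. For *Hdc* these were replicate 3 of WT at 2 months (8.30, the nearest array being at 9.14) and replicate 1 of BACHD at 10 months (8.66, nearest 9.21). The same BACHD array was low in *Prph* (8.05, nearest 8.40). *Maob* was low in replicate 2 of 79Q (9.73, nearest 9.94) and in replicate 5 of WT at 2 months (9.92, nearest 10.40), the array with the highest mean of pituitary markers (11.03). *Hrh3* was high in replicate 3 of BACHD at 10 months (10.31, nearest 10.19). *Slc18a2* was high in replicate 3 of 18Q (10.65, nearest 9.61), beside the dopamine neuron genes given above. *Gad1* was high in replicate 2 of WT control (11.62, nearest 11.49) and low in replicate 7 of BACHD at 2 months (11.13, nearest 11.38).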

How the results depend on the processing

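*Hdc* in 79Q vs. WT kept its direction and passed in all 20 alternatives run, with log2 fold changes of -0.90 to -0.74 and adjusted *p* of 0.000346 to 0.0171 by limma. No other of the 6 genes passed under any alternative. Replicate numbers did not pair the arrays (at most 2 of 6 pairs correlated above 0.1), and with a replicate block *Hdc* had -0.82 in 79Q vs. WT (adjusted *p* = 0.0142), -0.15 in 18Q mice against WT control, -0.68 between the vectors, -0.13 in the younger and -0.54 in the older BACHD mice, while 402 in place of 721 probe sets passed in 79Q vs. WT. Array weights gave 1092, and leaving out replicate 2 or 5 of WT control 476 or 439. In 18Q vs. WT 735 passed, 472 without replicate 4 and 1129 without replicate 6 of 18Q.

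Values near 0 turned sign. *Maob* became -0.028 after centring arrays on their medians and -0.0045 with array weights in 18Q vs. WT, 0.040 centred and 0.0083 with repeated quantile normalization at 2 months, and 0.0028 with array weights at 10 months. *Hrh3* at 2 months became 0.0099 when centred, and *Hnmt* at 10 months 0.042 with array weights. Without replicates 1 and 2 of WT at 2 months, which had the highest array medians and were left out after the data were seen, *Maob* became 0.071 and *Hrh3* 0.021. Leaving out single arrays gave, in 18Q vs. WT, *Maob* -0.024 to 0.026, *Hrh1* -0.024 to 0.082 and *Hrh2* -0.050 to 0.018, between the vectors *Hnmt* -0.071 to 0.041, at 2 months *Maob* -0.11 to 0.049 and *Hrh3* -0.085 to 0.010, and at 10 months *Hnmt* -0.13 to 0.020 and *Maob* -0.088 to 0.070. The causes were not tested. Each of the 6 genes has 1 probe set with a single gene symbol, so that no other of this kind could be tried. Probe sets with several symbols were not searched for these genes.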
